A study of Mus musculus with 9 samples.

Results

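Resident-only open regions were the stretches of accessible chromatin that only the tissue-resident macrophage list held: peaks of 3 deposited lists were merged where they overlapped by 1 bp or more, and merged regions with peaks of the resident list alone were kept. The regions were thus chosen by where peaks had been called, and by nothing else. They numbered 4044 of 36843 merged regions (11%), and 4044 of the 20404 regions that the resident list called (19.8%). The other 16360 resident-called regions, which the converted list, the monocyte-derived list or both also held, served as the comparison. The assay was ATAC-seq, which sequences the DNA that a transposase can reach, on sorted mouse peritoneal macrophages of 9 samples, 3 in each of 3 groups. The resident group has no group-specific treatment in the labels. The tissue-converted group had 2 ml of thioglycollate, which recruits monocytes to the cavity, and a tamoxifen diet of 8 weeks. The monocyte-derived group was harvested on day 4 after 2 ml of thioglycollate. All mice had the genotype Cx3cr1CreERT2-IRES-EYFP/+ Rosa26-stopfl-tdTomato/+, a tamoxifen-inducible Cre expressed from Cx3cr1 with a fluorescent reporter that Cre switches on, and their age is not given. All of them also received IL-4 complexes (5 µg IL-4 and 25 µg anti-IL-4) on alternate days from 4 days before harvest, so the resident cells were IL-4-exposed rather than untouched. Cell origin and treatment therefore differ together between the groups and cannot be told apart.

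Each group is represented by 1 list merged over its 3 samples, with a p-value per peak from the authors and no read counts. Depth is unknown, no value has a spread between replicates, and no test between groups was possible. Intervals below are 95% Wilson intervals for shares and Newcombe intervals for differences; they cover counting error over regions or genes, which are not replicates. The resident list held 24348 peaks, the converted list 15552 and the monocyte-derived list 33694, so a region missing from another list may be closed there or below its detection. In bulk samples, fewer cells with an open site and a less open site in every cell cannot be told apart either. Of 22 core macrophage genes, 21 had a resident-called region in the gene body or within 10 kb of it; Trem2, a lipid-sensing receptor, was the exception.

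Resident peritoneal macrophages, in the mouse mostly large peritoneal macrophages, are long-lived cells that clear dying cells from the cavity. Their identity depends on the transcription factor Gata6, which is induced by retinoic acid from the surrounding tissue, and they are recognised by the surface proteins F4/80, Icam2 and Tim-4. Cell-type-specific open chromatin is usually found at enhancers away from gene starts, whereas promoters of widely used genes are open in most cells.

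The resident-only regions with the smallest p-values at gene starts are shown first, because they are where the open sequence can be read next to a start site. Promoter windows came from RefSeq (GRCm38.p6), 250 bases before to 50 after each start, and 421 of 32619 windows (1.29%), belonging to 392 genes, held a resident-only region. The bases shown are the part of the region that lies upstream of the start, 5′ to 3′ on the gene's strand, and capitals mark matches to any of 16 motif letter patterns. These are the 8 of smallest p among regions with at least 50 bases upstream of every annotated start of the gene, where ties in p went to the wider region.
Cabcoco1 (chr10:68541876-68541938, minus strand): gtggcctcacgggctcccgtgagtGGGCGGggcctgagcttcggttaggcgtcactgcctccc
Glt28d2 (chr3:85887519-85887763, minus strand): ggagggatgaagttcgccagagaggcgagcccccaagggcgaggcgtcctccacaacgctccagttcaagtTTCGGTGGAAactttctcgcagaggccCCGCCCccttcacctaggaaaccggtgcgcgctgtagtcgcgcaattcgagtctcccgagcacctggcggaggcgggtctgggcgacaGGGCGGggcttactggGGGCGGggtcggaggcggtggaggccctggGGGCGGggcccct
Pbx4 (chr8:69832374-69832513, plus strand): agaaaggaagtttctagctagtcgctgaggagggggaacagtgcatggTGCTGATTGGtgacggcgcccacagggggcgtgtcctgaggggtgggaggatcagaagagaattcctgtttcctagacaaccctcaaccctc
Pla2r1 (chr2:60553309-60553413, minus strand): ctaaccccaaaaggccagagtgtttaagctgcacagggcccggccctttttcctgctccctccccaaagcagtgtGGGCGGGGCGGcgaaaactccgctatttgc
Abcc4 (chr14:118706389-118706469, minus strand): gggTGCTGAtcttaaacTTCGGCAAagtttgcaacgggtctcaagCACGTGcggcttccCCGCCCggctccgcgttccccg
Tnfsf8 (chr4:63861314-63861438, minus strand): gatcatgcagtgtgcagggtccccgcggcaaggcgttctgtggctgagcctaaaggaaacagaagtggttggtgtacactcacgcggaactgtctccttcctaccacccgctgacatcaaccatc
Gpn2 (chr4:133584239-133584363, plus strand): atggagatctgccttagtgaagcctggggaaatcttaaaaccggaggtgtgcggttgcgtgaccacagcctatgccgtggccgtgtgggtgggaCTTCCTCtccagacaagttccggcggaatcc
1600020E01Rik (chr6:86527114-86527238, plus strand): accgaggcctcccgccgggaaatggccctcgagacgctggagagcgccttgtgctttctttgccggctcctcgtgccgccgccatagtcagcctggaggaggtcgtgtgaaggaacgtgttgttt

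The Cabcoco1 region had a p-value of 1.5009e-06 and each of the other 7 a p-value of 3.39392e-06. That value was held by 569 resident-only regions, so the 7 were set apart by width and not by p. Cabcoco1 has a capital GGGCGG, the GC box read by SP and KLF factors, and it lay 145 kb from the nearest monocyte-derived peak and 163 kb from the nearest converted peak. Glt28d2 carries 4 GC boxes and a STAT6-type spaced palindrome, and lay 222 kb from a monocyte-derived peak and 83.2 kb from a converted peak. Both promoters were thus far from any peak of the other lists. By contrast, the region at Abcc4, an efflux transporter, lay 0.075 kb from a monocyte-derived peak and 0.05 kb from a converted peak. The region at Pla2r1, a receptor for secreted phospholipase A2, lay 0.15 kb from a monocyte-derived peak. The Tnfsf8 (CD30 ligand) and 1600020E01Rik regions held no match to any pattern, and the Gpn2 region held 1 match to GAGGAAG, the PU.1-type ETS sequence, on the opposite strand (CTTCCTC). Small p-values at promoters thus occurred both far from and immediately beside peaks of other lists.

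Among genes of the lists described below, 2 promoters are shown, Il7r (the interleukin-7 receptor alpha chain) and C1qb (a chain of complement C1q); they were chosen after their values were seen.
Il7r (chr15:9529877-9529938, minus strand): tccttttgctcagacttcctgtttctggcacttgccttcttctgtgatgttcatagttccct
C1qb (chr4:136886201-136886263, minus strand): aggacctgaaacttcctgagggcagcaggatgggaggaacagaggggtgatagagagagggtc

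Neither sequence held a pattern match. The Il7r region (p-value 3.39392e-06) lay 1.38 kb from a monocyte-derived peak and 1.45 kb from a converted peak. The C1qb region (p-value 5.62601e-06) abutted a monocyte-derived peak with 0 bases between, and so entered the set at the very edge of the overlap rule. With merging across 200 bp it would no longer count.

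Resident-only regions were short and modest in score. A merged region shared between lists takes in the peaks of every list in it, so widths were compared by the widest peak of the resident list in each region. That peak had a median width of 75 bp in resident-only regions, the smallest width in the lists (interquartile range 75 to 100 bp, maximum 300 bp), against 150 bp in other resident-called regions (100 to 225 bp, maximum 3100 bp). It was 75 bp wide in 2168 resident-only regions (53.6%), against 2621 of the 16360 other resident-called regions (16.0%). Width and p come from the same peaks that chose the regions, and a wider peak has more bases in which to meet a peak of another list, so these values are a description and no test. As merged regions, which here hold peaks of 1 list only, 2072 resident-only regions (51.2%) were 75 bp wide. By the same measure converted-only regions, 570 in number, had 57.7% at 75 bp and monocyte-derived-only regions, 14557 in number, had 23.3%. Short width was thus shared with the regions private to the other lists, the monocyte-derived ones less so.

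The resident-only share fell steadily with the width of the resident peak. Where the widest resident peak was 75 bp, 45.3% of resident-called regions were resident only, and at 100 bp 32.6% were. At 125 bp the share was 17.1% and at 150 bp 8.32%. From 225 to 300 bp it was 0.788%, and from 325 to 500 bp 0 of 1499 regions were resident only (upper Wilson bound 0.256%). Most regions at the smallest width were thus called in another list as well, and from 325 bp upward all were.

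The strength of the calls showed the same contrast. Only 18 resident-only regions (0.445%) reached the floor of the deposited p-values, 1e-12, against 3034 of the other resident-called regions (18.5%), a difference of -18.1 percentage points (-18.7 to -17.5). The median p was 8.26647e-06 in resident-only regions and 5.62601e-06 in the others. Deposited p-values take few distinct values, 20 in the resident list, and the single value 8.26647e-06 held 1413 resident-only regions (34.9%). At the weak end the order turned: 676 resident-only regions (16.7%) had p above 1e-05, against 3366 of the others (20.6%), so resident-only regions were not simply the weakest calls. Where the widest resident peak was 75 bp, the resident-only share was 39.8% for p of 1.5009e-06 to 5.62601e-06, 49.6% for 6.37292e-06 to 8.42791e-06 and 42.4% for p above 1e-05.

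**Figure D1:**
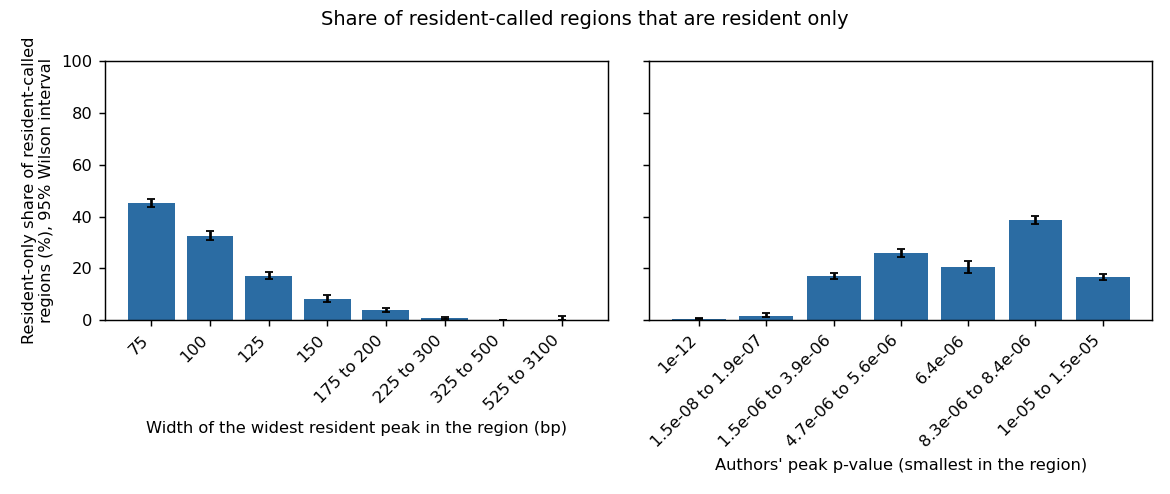
Share of resident-called regions that are resident only (%, bars, with 95% Wilson intervals over regions) by the width in bp of the widest resident peak in the region (left) and by the authors' p-value, smallest among the resident peaks of the region (right). The share is 45.3% at 75 bp and 0 at 325 bp or wider, and it is 0.590% at the floor of 1e-12 and 38.8% at p of 8.26647e-06 to 8.42791e-06.

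Position differed as well. The rule did not name position, but position is not independent of it. The rule drops regions that overlap a peak of another list, and 58.3% of regions in all 3 lists lay within 1 kb of a gene end. The shares below are therefore a description and no test. Gene ends here are both bounds of a protein-coding gene, the side of its start included. Within 1 kb of such an end lay 1026 resident-only regions (25.4%, 24.1 to 26.7) against 8432 of the other resident-called regions (51.5%, 50.8 to 52.3). The difference was -26.2 points (-27.7 to -24.6). Measured from the widest resident peak in place of the merged region, which is wider where other lists add peaks, the shares were 25.4% and 51.2%. Among regions whose widest resident peak was 75 bp they were 26.1% of resident-only and 39.6% of other resident-called regions, a difference of -13.5 points (-16.1 to -10.9). At that width the difference was thus smaller, and it was -30.1 points at 150 bp. Inside a gene lay 59.9% of resident-only and 75.4% of other resident-called regions, or 59.8% and 71.8% by the widest resident peak. Outside genes and over 10 kb from any lay 26.3% of resident-only and 14.7% of other resident-called regions. Resident-only regions were thus more often distal than resident regions shared with another list. The gene table gives gene bounds but no exons or introns, so positions inside genes are not divided further. With 75 bp peaks left out the difference near gene ends was -29.3 points, and it was negative under every alternative tried.

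The distal position was not particular to the resident list. Of monocyte-derived-only regions 24.4% lay within 1 kb of a gene end, and the resident-only share exceeded it by 0.998 points (-0.496 to 2.53). Of converted-only regions 24.9% did, a difference of 0.459 points (-3.48 to 4.10). Both intervals include 0, while a difference of a few points is within them. Resident-only regions lay inside genes less often than converted-only regions, 59.9% against 66.8%, a difference of -6.98 points (-11.0 to -2.73), and they were outside genes and over 10 kb away more often than monocyte-derived-only regions, 26.3% against 23.1% (3.21 points, 1.71 to 4.75).

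Few resident-only regions covered a transcription start, and those near one were spread more widely around it than other resident-called regions. Of regions in all 3 lists 43.2% covered a start, so this measure too is not independent of the rule. A region covered an annotated start in 159 of 3890 resident-only regions (4.09%; chromosome 18, with no start in the table, left out), against 5509 of 15819 other resident-called regions (34.8%), or 3.91% and 27.7% by the widest resident peak. Rarely covering a start was not particular to the resident list. Of converted-only regions 5.19% covered one, a resident-only minus converted-only difference of -1.10 points (-3.38 to 0.612). Of monocyte-derived-only regions 7.51% did, a difference of -3.42 points (-4.15 to -2.63). Covering a start depends on width, so the middles of the resident-called regions were compared as well. Of the 978 resident-only regions whose middle lay within 1 kb of a start, 48.5% were more than 100 bp downstream, 27.6% within 100 bp and 23.9% upstream. Of the 7976 other resident-called regions near a start, 18.9% were downstream, 56.9% within 100 bp and 24.2% upstream, by the same bounds. By the middle of the widest resident peak, 48.6% of resident-only and 19.4% of other resident-called regions near a start were downstream. Among regions near a start, the upstream shares were thus close, and the difference lay between the start itself and the first kilobase of the gene. Of the whole sets, 234 of 3890 resident-only and 1929 of 15819 other resident-called regions were upstream by these bounds, and 474 and 1510 downstream. By that measure the upstream shares differed as well. With peaks within 500 bp merged, which removes regions flanking a shared peak, the downstream share of resident-only regions was 29.2%.

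**Figure D2:**
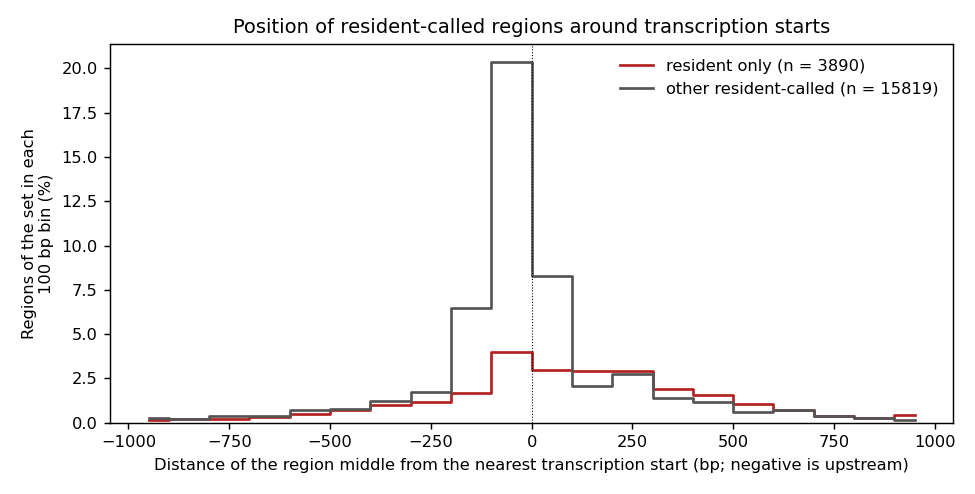
Position of resident-only regions (red, n = 3890) and other resident-called regions (grey, n = 15819) around the nearest transcription start: percentage of each set (y axis) per 100 bp bin of the distance of the region's middle from the start (x axis, bp, negative is upstream). Both lines are highest in the bin just upstream of the start, at 20.4% (grey) and 3.98% (red), and the red line is low and broad. From 100 to 600 bp downstream the red line shows a higher percentage of its set per bin than the grey line.

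By distance to other lists the resident-only regions fell into near and remote ones. The median gap to the nearest peak of another list was 9525 bp. Of the regions 1106 (27.3%) had such a peak within 500 bp and 1987 (49.1%) had none within 10 kb. Just inside the rule were 132 regions that touched a peak of another list with 0 bases between (median width 75 bp), and just outside it 196 regions whose overlap was 25 bases (median merged width 175 bp). Monocyte-derived peaks were the closer ones, with a median gap of 12362.5 bp against 29300 bp to converted peaks, and the monocyte-derived list was also the longer.

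Near and remote regions differed in position. Within 1 kb of a gene end lay 50.7% of those with another list's peak within 500 bp, 17.8% of those farther than that but within 10 kb and 14.9% of those over 10 kb away. The near ones therefore matched the 51.5% of the other resident-called regions in this respect and the remote ones did not. For the 1106 near regions, the nearest region of another list was called in all 3 lists in 47.2% of cases, and 70.9% had as neighbour a region that the resident list itself called. Most near regions were thus a second resident call beside a first one.

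Across chromosomes the resident-only share of resident-called regions was between 11.5% (54 of 470, 8.91 to 14.7) on chromosome 19 and 22.2% (276 of 1244, 19.97 to 24.58) on chromosome 4, with 22.2% on chromosome 18 as well. Chromosome 19 stood below the overall 19.8%. With the lists reduced to equal length its share was 28.9% against 32.6% overall. Another resident-only region lay within 10 kb of 822 (20.3%) of them. In 25 chains of 5 or more, linked by gaps of at most 50 kb, lay 225 resident-only regions (5.56%), and 12 of these chains, with 76 regions, contained no region of another list.

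The longest chain by count lay at Sfi1, which encodes a centriole protein, at chr11:3130764-3200063 (GRCm38). It held 48 resident-only regions, 6 of them at the p floor, among 134 resident-called, 76 converted-called and 92 monocyte-derived-called regions. All 3 lists were dense there, and every resident-only region lay within 1.55 kb of a monocyte-derived peak. At Ugt1a, the cluster of bile pigment and drug glucuronosyltransferases, with neighbouring Mroh2a and Trpm8, 23 resident-only regions lay in 100.35 kb on chromosome 1, among 7 converted-called and 26 monocyte-derived-called regions. Around Gm38510 and C130026I21Rik on chromosome 1, 18 of 20 regions were resident only, and around Tmem267 on chromosome 13, 13 of 15 were. In the chain at Zfp992, a zinc-finger gene on chromosome 4, all 11 regions were resident only, with the nearest peaks of other lists at least 662.95 kb away.

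Marco, the scavenger receptor that large peritoneal macrophages use to bind bacteria, had the chain that combined a resident macrophage gene with absence from the other lists. At chr1:120418314-120532063, 8 resident-only regions flanked the gene on both sides, and no region of another list lay among them. None lay inside the gene. Their distances from it were between 5.425 and 56.15 kb, their widths 75 to 150 bp and their p-values 3.39392e-06 to 1.31073e-05. The nearest monocyte-derived peak was 112 to 226 kb away and the nearest converted peak 153 to 266 kb. Thus the whole neighbourhood of Marco had calls in the resident list and in neither of the others.

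Itga2, the integrin alpha chain of a collagen receptor, had 5 resident-only regions inside the gene, and no region of another list lay among them. The gene and 10 kb each side held 6 resident-called, 1 converted-called and 1 monocyte-derived-called regions in all. The 5 lay 32.2 to 61.1 kb from monocyte-derived peaks, and 1 of them covered its annotated start. Cxcr4, the receptor for the chemokine Cxcl12, lay in a chain of 5 that also held 3 monocyte-derived-called and 1 converted-called regions, and 1 of the 5 lay in the gene. Of the 18 regions at the floor, 6 lay at Sfi1. Single ones lay inside Celf4 (an RNA-binding protein), Stard13 (a GTPase-activating protein) and Dnah11 (a dynein heavy chain), 42.1, 50.5 and 125 kb from the nearest monocyte-derived peak. These 3 were the only floor regions over 10 kb from any peak of another list. Of the 18, 6 had such a peak within 500 bp and 9 had one farther than that but within 10 kb. Several lay outside genes, among them 2 in a chain at chr14:19415839-19419713, within 1.65 kb of peaks of both other lists. None of the 18 lay within 1 kb of a gene end.

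Counted by gene, 2959 of 21631 protein-coding genes (13.7%) had at least 1 resident-only region in the gene body or within 10 kb of it, and these were 25.3% of the 11686 genes with any resident-called region. They were long genes, with a median length of 40.2 kb against 17.3 kb for all genes. Of the genes 523 had 2 or more and 36 had 5 or more. The 10 genes with most were all at the chains of Sfi1, Ugt1a, Gm38510 and Tmem267; Eif4enif1 and Gm51877, which adjoin Sfi1, had 9 and 10.

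Large peritoneal macrophage genes had the highest share of genes with a resident-only region among the 19 lists counted. Of 28, 13 had one (46.4%, 29.5 to 64.2), against 13.7% of all genes, and of the 22 with a resident-called region 59.1% did, against 25.3%. Their 21 resident-only regions made up 42% of the 50 resident-called regions at these genes, against 19.8% over all resident-called regions. By the share of genes with a resident-called region, or of resident-called regions, the short neutrophil, mesothelial or stromal and mast cell lists described below were higher. The large peritoneal macrophage list's median gene length was 33.3 kb, longer than the 17.3 kb of all genes. Of the 21 regions 17 lay inside a gene, 15 lay over 10 kb from any peak of another list and 3 within 500 bp of one, 11 were 75 bp wide, and p was 3.39392e-06 to 1.17833e-05. None was at the floor. The members and lists had been chosen with results of these data known, and the count is no independent support. Without 75 bp peaks, 7 of the 28 genes kept a resident-only region, against 6.75% of all genes; Alox15, F5, Gata6, Nt5e, Tgfb2 and Timd4 lost theirs. With lists of equal length 10 kept one, and Gata6, Nt5e and Timd4 did not. At p of at most 1e-10 none of the 13 did.

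The transcription factor and the nuclear receptor among these genes are described first. Gata6, the factor on which this macrophage type depends, had 1 region, chr18:11053264-11053338, with a p-value of 8.26647e-06. This region lay inside the gene and 0.754 kb from 1 of its ends. It was the only resident-called region at Gata6; a converted peak lay 0.725 kb away, 1 of 2 converted-called regions there, and the nearest monocyte-derived peak was 143 kb away. Gata6 was thus called in the resident and converted lists at different positions and not in the monocyte-derived list. Rarb, a retinoic acid receptor, had 3 resident-only regions, all inside the gene, which had 5 resident-called, 3 converted-called and 7 monocyte-derived-called regions. A pair of them adjoined at chr14:16598214-16598538, 22.5 kb from the nearest other-list peak, and the third (p-value 3.39392e-06) lay 120 kb from any.

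Surface proteins that mark the cell type were represented by few, remote calls. Adgre1, which encodes F4/80, had 3 resident-only regions of 4 resident-called, all inside the gene, at chr17:57400864-57400988, chr17:57471339-57471438 and chr17:57471764-57471838. They lay 42.2, 112.7 and 113.1 kb from a monocyte-derived peak and 53.6, 124.1 and 124.5 kb from a converted peak. Adgre1 had no converted-called and 1 monocyte-derived-called region. Icam2, an adhesion molecule, had 1 region, 175 bp wide and 0.151 kb inside 1 of its ends (p-value 5.62601e-06), with no region of another list in its window. Timd4, the Tim-4 receptor for dying cells, had 1, 6.12 kb outside the gene, 324 kb from the nearest peak of either other list. Icam2, Timd4, Marco and Alox15, a lipoxygenase, thus had resident-only regions and no converted or monocyte-derived call within 10 kb of the gene. Of these, the Timd4 and Alox15 regions rest on peaks of 75 bp, Marco and Timd4 have none in the gene itself, and Timd4 has none with lists of equal length.

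Secreted and enzymatic products followed a more mixed pattern. Alox15 had 1 region inside the gene (p-value 3.39392e-06), 57.5 kb from a monocyte-derived peak. Garnl3, whose protein has a Rap GTPase-activating domain, had 3 of 6, all inside the gene and 10.1 to 32.4 kb from the nearest converted peak. Tgfb2, a growth factor of the TGF-beta family, had 1 of 2, 0.25 kb from a converted peak and 90.7 kb from a monocyte-derived one. Thbs1, a secreted matrix glycoprotein, had 2 of 2 at the same end of the gene, 1 of them covering it, 0.3 and 0.5 kb from a monocyte-derived peak. F5 (coagulation factor V), Prg4 (lubricin) and Nt5e (an ectonucleotidase making adenosine) had 1 each, 11.3, 3.225 and 1.38 kb from a monocyte-derived peak, and those genes had 2, 4 and 4 monocyte-derived-called regions. At these 3 genes, then, the monocyte-derived list held regions too, at other positions. Of the list's genes without a resident-only region, Serpinb2, F10, Bhlhe40, Selp, Cd9, Itga6, Laptm5, Vsig4 and Fn1 had resident-called regions, and Cxcl13 had no region in any list. Lyve1, Naip1 and Saa3 had no resident-called region but 2 monocyte-derived-called regions each. Apoc1 and Fcna had no resident-called region either, with 1 monocyte-derived-called region each and, at Fcna, 1 converted-called region.

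**Figure D3:**
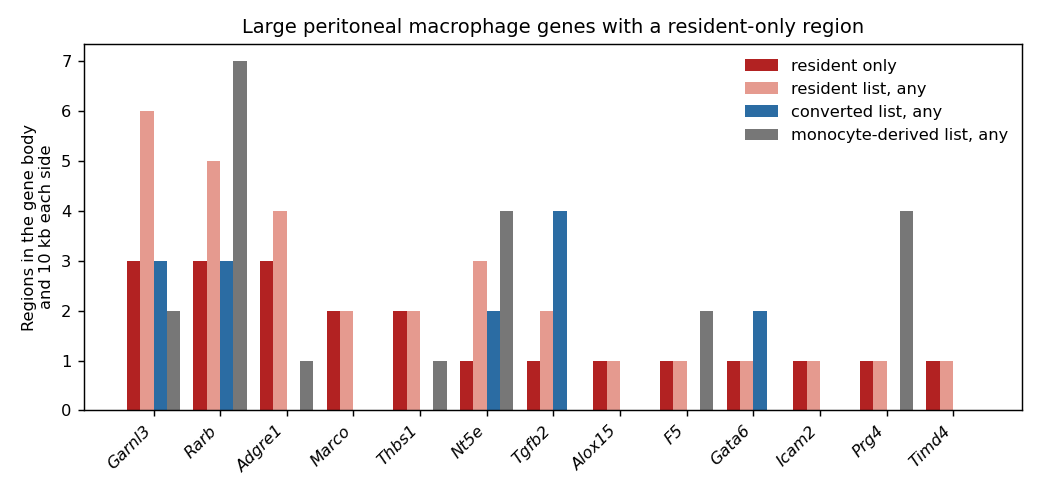
Regions in the gene body and 10 kb each side (count, y axis) for the 13 large peritoneal macrophage genes with a resident-only region (x axis): resident only (dark red), all resident-called (light red), converted-called (blue) and monocyte-derived-called (grey). Garnl3, Rarb and Adgre1 have 3 resident-only regions each, and Marco, Alox15, Icam2 and Timd4 show no bar for the other lists.

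Genes of alternative activation, the macrophage response to IL-4, which all groups had received, had the next share of genes: 9 of 24 found had a resident-only region (37.5%, 21.2 to 57.3; Ear11 was not found), against 13.7% of all genes. Their 12 regions were 26.1% of the 46 resident-called regions there, nearer to the overall 19.8%. Slc7a2, a cationic amino acid transporter that supplies arginine, had 3 in a row 0.669 to 1.12 kb beyond 1 end of the gene, 11.7 kb or more from any peak of another list. Stat6, the factor activated by the IL-4 receptor, had 2 flanking its start, each 0.9 kb from a monocyte-derived peak. Il4ra, the receptor chain itself, had 1 at 0.625 kb from both other lists. Chil3 and Retnla, secreted products of alternatively activated cells, had 1 each, 2.02 and 8.77 kb outside the gene and 27.1 and 4.425 kb from a monocyte-derived peak. Mrc1, the mannose receptor, had 1 inside the gene and 5.125 kb from a monocyte-derived peak. Ucp1, Tgm2 and Kdm6b had 1 each. Arg1, the arginase typical of this state, had none, with 3 resident-called regions all shared. None of the 12 regions lay within 500 bp of a peak of another list and 4 lay over 10 kb away. With gene bodies alone 5 of the 24 genes had one, and without 75 bp peaks 4 did.

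Genes for complement, uptake of dying cells and scavenging had a resident-only region in 8 of 27 (29.6%, 15.9 to 48.5). They shared 7 regions, because 1 at the C1qb start counts for C1qa, C1qb and C1qc, which are neighbours. These 7 were 20% of the 35 resident-called regions there, close to the 19.8% over all resident-called regions. Besides Marco and Timd4, the others were Axl (a receptor kinase for dying cells), C3 and Scarb1 (a lipoprotein receptor). The regions at Axl and C3 lay nearer to another gene, Hnrnpul1 and Tnfsf14. The Scarb1 region lay 0.35 kb from a monocyte-derived peak. The region at the C1qb start abutted a peak of the monocyte-derived list alone, as described above.

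Integrin and adhesion genes had one in 6 of 22 (27.3%), with Itga2, Icam1, Icam2, Cd44, Pecam1 and Itga1 among them and 11 regions, 5 of which were the Itga2 chain. Retinoid genes had one in 4 of 20 (20%), namely Rarb, Rara, Rarg and Cyp26b1, which degrades retinoic acid. The region counted for Rara lay inside another gene, Cdc6, 9.26 kb outside Rara and 0.05 kb from a converted peak. Lipid handling genes had one in 6 of 26 (23.1%), including 2 regions at Ppargc1a, a coactivator of mitochondrial genes, 0.2 and 0.6 kb from a converted peak. Macrophage core genes had one in 6 of 22 (27.3%), among them the transcription factors Cebpa, Runx1 and Klf2 and the receptor subunits Csf2ra and Csf2rb. Csf2rb had no region of another list, with its 1 region 57.7 kb from a monocyte-derived peak. Spi1, which encodes PU.1, and Csf1r, the receptor for the macrophage growth factor, had none. Cell cycle and self-renewal genes had one in 5 of 22 (22.7%) and housekeeping genes in 4 of 18 (22.2%). All these intervals were wide, and apart from the first 3 lists every interval included the 13.7% of all genes.

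Monocyte and inflammatory genes had the smallest shares, with intervals that include the 13.7% of all genes. A resident-only region was found at 1 of 24 monocyte and small peritoneal macrophage genes (4.17%, 0.739 to 20.2). With 50 kb each side 8 of the 24 had one, against 26.5% of all genes, so the share was not low with that window. This was Vcan, a matrix proteoglycan, at chr13:89742114-89742188, 1.10 kb from a monocyte-derived peak. Only 8 of the 24 had any resident-called region, and Ccr2 and Cx3cr1 had none. Of 22 inflammatory mediators, 1 had a resident-only region (4.55%, 0.807 to 21.8), Tnf, where it abutted a monocyte-derived peak with 0 bases between. The inflammatory genes are short, with a median length of 6.73 kb against 17.3 kb for all genes. MHC class II presentation had one in 2 of 14 (14.3%), Ciita, the master activator of these genes, and Cd40.

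Markers of other cells that a peritoneal sort could hold were counted as well, against the 13.7% of all genes and 19.8% of all resident-called regions. Neutrophil markers had a resident-only region in 3 of 12 genes (25%), or 60% of the 5 with a resident-called region, and in 5 of their 8 resident-called regions: Padi4, a histone-modifying enzyme, had 3, the nearest 7.475 kb from a monocyte-derived peak, and Elane and Csf3r had 1 each, nearer to Prtn3 and Mrps15. The neutrophil surface marker Ly6g had no region in any list. Of 15 B cell markers 8 had resident-called regions and 3 a resident-only one (20%), Ebf1, Bach2 and Blnk, and these were 3 of 17 resident-called regions. Cd79a, Cr2, Fcer2a, Fcrla and Pou2af1 had resident-called regions that were all shared. Ms4a1 and Pax5 had no region in any list. Dendritic cell markers had one in 3 of 11 (27.3%), Zbtb46, Itgae and Tcf4, with 4 of 19 resident-called regions. Mesothelial or stromal markers had one in 3 of 11 (27.3%), Krt18, Lrrn4 and Pdgfra, which is 3 of 4 with a resident-called region and 3 of 5 resident-called regions. Krt18 had no region of another list, Pdpn had 2 resident-called regions, both shared, and Msln, Upk3b and Col1a1 were at 0 in all lists. T and NK cell markers had one in 1 of 15 (6.67%, Il7r), with Cd3e at 0 in every list. Eosinophil markers had one in 1 of 8 (12.5%, Ccr3) and mast cell markers in 1 of 10 (10%, Hdc), which was the 1 resident-called region of that list, with the mast cell genes Kit and Cpa3 at 0. Whether other cells contributed to single regions was not tested.

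**Figure D4:**
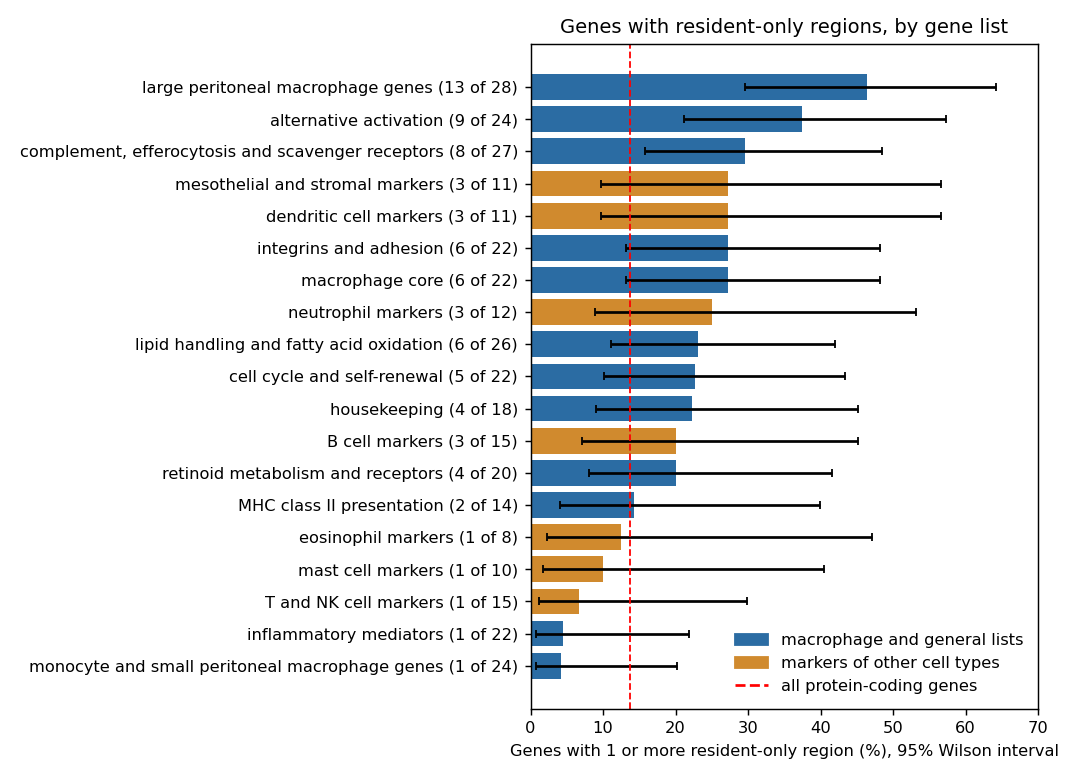
Genes with 1 or more resident-only region in the body or within 10 kb (%, x axis, bars with 95% Wilson intervals over genes) for 19 gene lists (y axis, with counts); blue bars are macrophage and general lists, orange bars markers of other cell types, and the dashed line is the 13.7% of all protein-coding genes. Intervals of large peritoneal macrophage genes (46.4%), alternative activation (37.5%) and complement, efferocytosis and scavenger receptors (29.6%) lie wholly right of the line. For the last list, 20% of resident-called regions were resident only, against 19.8% over all. Monocyte and inflammatory genes have the smallest shares.

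The promoters that held a resident-only region were rich in GC and in CG dinucleotides. Mean GC content was 63.6% ± 9.73 (SD over 421 windows) against 62.9% ± 8.47 in the 7453 windows with other resident-called regions only, and 53.9% ± 11.3 in all 32619. They held 22.9 ± 12.5 CG dinucleotides per 300 bases against 24.4 ± 10.8 in those 7453 windows. Of the 421 windows, 75 also held another resident-called region. In base composition, therefore, the resident-only promoters were like other promoters open in resident cells and unlike promoters in general.

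Letter patterns were counted on both strands in the same windows, and a match is a description of the sequence, not a binding site. NF-Y boxes (CCAAT) were in 31.6% of promoters with a resident-only region, 44.5% of promoters with other resident-called regions only (a difference of -13.0 points, -17.4 to -8.23) and 37.6% of all promoters. GC boxes (GGGCGG), seen above at Cabcoco1, Glt28d2, Pla2r1 and Abcc4, were in 64.1% and 73.2% of those sets (-9.06 points, -13.9 to -4.51) and 35.9% of all. The ETS sequence of widely used promoters (CCGGAAG) was in 13.8% and 21.8% (-8.03 points, -11.1 to -4.29) and 8.92% of all; it shares the letters GGAAG with the PU.1-type sequence but the same bases cannot match both. These 3 patterns, typical of housekeeping promoters, were thus less frequent where a region was resident only. The PU.1-type sequence GAGGAAG was in 16.2% and 13.4% (2.71 points, -0.596 to 6.60) and 13.4% of all.

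The remaining 12 patterns had intervals of the difference that included 0. They included AGATAA for the GATA family, TGANTCA for AP-1, TTGCNNAA for C/EBP, the E-box CACGTG, the nuclear receptor half-site AGGTCA and the MAF half-site TGCTGA. Also included were the CRE (TGAC directly before its reverse complement) and the NRF1 pattern (GCGC directly before ATGC). In the other 4, a gap of any bases parts the letters: IRF (GAAA, gap of 2, the same letters), STAT6 (TTC, gap of 4, its reverse complement), NF-kB (GGGA, gap of 4, then CC) and MEF2 (CTA, gap of 4, its reverse complement). The letters AGATAA, which factors such as Gata6 read, was in 5.70% of promoters with a resident-only region, 4.15% of those with other resident-called regions only and 11.2% of all. TGCTGA, read by MAF factors, was in 16.2%, 13.8% and 19.5%. STAT6 letters were in 4.99%, 4.70% and 6.99%. Patterns in the distal regions, which are most of the set, were not analysed here.

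**Figure D5:**
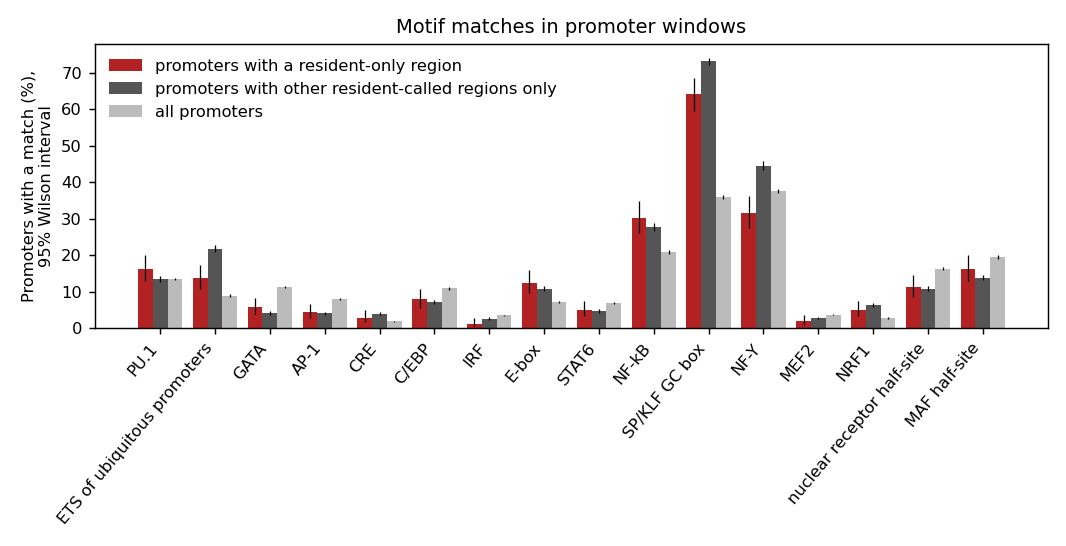
Promoter windows with a match to each of 16 letter patterns (%, y axis, 95% Wilson intervals over windows): windows with a resident-only region (red, n = 421), windows with other resident-called regions only (dark grey, n = 7453) and all windows (light grey, n = 32619). The red bar is below the dark grey bar for NF-Y (31.6% and 44.5%), GC box (64.1% and 73.2%) and the ubiquitous ETS pattern (13.8% and 21.8%).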

How the data were processed

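Peaks of the 3 groups were read from 1 deposited list each, merged by the authors over 3 samples; the lists give a p-value for each peak as the authors deposited it, with starts and widths on a grid of 25 bp, and no counts or heights. The submitters' processing notes name Bowtie2 2.2.9 and the build mm10 (GRCm38). Not given in the sources used here: how peaks were called, whether reads were shifted for Tn5, what was done with duplicates and how samples were combined. Any of these could change which short peaks were called. The list names carry a threshold of 1e-05, but 5476 resident peaks, 0 converted peaks and 1267 monocyte-derived peaks exceed it. Peaks on 20 chromosomes (1 to 19 and X) were merged as described in the results, and p was used only to rank or filter within a list. Genes were 21631 protein-coding genes and promoters 32619 windows on all of those chromosomes but 18, from RefSeq GRCm38.p6. The members and the 19 gene lists (333 genes, 332 found) were chosen with earlier results of these data known. Named genes were the 10 with most resident-only regions, those at the 20 regions of smallest p, up to 4 per list, and 15 fixed genes; other list members are named where a count is spelled out. Merging and gene counts were tested on simulated data, where all 7000 simulated regions and 500 gene windows were recovered. Alternatives changed p thresholds, list lengths, the overlap, the gene window and the gene end distance. Removal of 75 bp resident peaks and of chains, and bounds by the widest resident peak, were added after seeing the data. Software was matplotlib 3.10.9, pandas 2.3.3 and numpy 2.4.6 under Python 3.11.15.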

Additional observations from a re-analysis of the deposited data

How the results depend on the processing

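No paired analysis was possible because the deposited lists pool the 3 samples of a group, and for the same reason no replicate could be left out. The number of resident-only regions and their share of resident-called regions depended most on p and width, and the cause was not tested. The difference in position from other resident-called regions near gene ends was negative under all 10 alternatives, between -24.2 and -33.2 points apart from -72.7 points in the 18 regions at p of at most 1e-10. With p at most 1e-05 in every list, 21.6% of resident-called regions were resident only, 58.8% of them were 75 bp wide, and 17.2% had another within 10 kb. With resident peaks of p at most 1e-10, 18 regions (0.589%) were left; 0% lay near a gene end, 55.6% inside a gene, 0% were 75 bp wide, 33.3% had another list's peak within 500 bp and 33.3% another resident-only region within 10 kb. Then 8 genes had one, 0 of the large peritoneal macrophage, monocyte, alternative activation or housekeeping genes, 0 promoters, and 0% of chromosome 19 regions. With lists of equal length, 32.6% were resident only, 32.7% lay near a gene end, 62.6% inside a gene, 46.1% were 75 bp wide, 28.9% was the share on chromosome 19, 37.6% lay downstream among those near a start, and 2 monocyte genes and 851 promoters had one. With an overlap of 50% required, 26.8% lay near a gene end and 33.0% within 500 bp of another list's peak. With peaks within 200 bp merged, the shares were 17.5% resident only, 17.9% near a gene end, 56.3% inside a gene, 49.0% at 75 bp, 7.99% within 500 bp, 11.7% with another within 10 kb and 36.5% downstream. With 500 bp they were 16.6%, 15.3%, 55.0%, 48.6%, 0%, 9.58% and 29.2% in that order, with 8.60% on chromosome 19, 2 housekeeping genes and 267 promoters. Without resident peaks of 75 bp, 1880 regions (12.03%) were left, 0% at 75 bp, 25.7% within 500 bp, 15.3% with another within 10 kb, 6.70% on chromosome 19 and 44.98% downstream; 1460 genes had one, among them 7 large peritoneal macrophage, 0 monocyte, 4 alternative activation and 2 housekeeping genes, and 205 promoters. Without chains, 19.03% were resident only and 16.3% had another within 10 kb. With gene ends taken to 2.5 kb, 32.3% lay near one. With gene bodies alone, 1964 genes had one, 5 of them alternative activation and 2 housekeeping genes; with 50 kb each side, 5736 did, 8 of them monocyte and 11 housekeeping genes; by nearest gene end, 3 monocyte genes did. Of 152 values recomputed, 85 were counted as the same and 67 as moved. A share counted as the same if it stayed within its main interval, and a count if it changed by at most 1.5 times. A difference counted as the same if its sign held and its interval excluded 0, whatever its size. Short calls limit the set: depth is unknown, and a resident-only region may be open but uncalled elsewhere.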

Other observations

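Genes for microRNAs beside these regions were counted as well. The RefSeq table held 1005 hairpins, and 5 resident-only regions lay within 1 kb of one, at Mir707, Mir1895, Mir146, Mir1191b and Mir5135. The share for other regions was not computed, so 5 cannot be called few or many. The region at Mir146, which encodes a microRNA known to restrain innate immune signalling, was chr11:43375064-43375163, 603 bp from the hairpin, with a p-value of 3.39392e-06, and the nearest monocyte-derived and converted peaks lay 10 and 9.975 kb away. The Mir707 region lay 93 bp from its hairpin and 0.575 kb from a monocyte-derived peak, so of these 2 the Mir146 region was the more remote from other lists.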
